A study of Mus musculus with 42 samples.

Results

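The regions described are stretches of mouse chromosomes that were ascribed to a lamina-associated domain (LAD) in the liver of a single mouse and in none of the other 13. Chromosomes 1 to 19 of mm10 were tiled in 24639 bins of 100 kb, a bin was placed in a LAD of a library where the deposited LADs of that library covered 50 kb or more of it, and the 1154 bins in a LAD of exactly 1 of the 14 libraries are called private. They amount to 4.68% of all bins and to 12.9% of the 8969 bins in a LAD of at least 1 library, which are themselves 36.4% of all bins. The private bins amount to 115.4 Mb. LAD calls thus chose these bins, and everything that follows from the calls (counts, positions, lengths, chromosomes) is given as a description without a test.

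The libraries are chromatin immunoprecipitations of lamin B1 (LMNB1) followed by sequencing, from livers of wild-type C57Bl/6 mice, with 2 mice at each of 7 time points. Mice of 6 time points, CT0, CT6, CT12, CT18, CT24 and CT30 (circadian time in hours), were synchronized by a day without food and refed at CT0, in cycles of light and dark. The non-synchronized (NS) mice were killed at noon on the day before food was withdrawn. All mice share genotype and tissue, and the labels name them female in 1 field and male in another. The authors describe them as male. The files hold LAD positions only, with no score or read count, so the depth behind a call is unknown, and the tissue could not be checked against marker genes. Where nothing else is said, replicates are those of the labels.

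LADs are megabase-sized domains of chromatin that lie at the nuclear lamina, the meshwork of A-type and B-type lamins under the inner nuclear membrane. They are generally poor in genes, rich in A and T bases, and lowly expressed. Many are shared between cell types, whereas others differ between cell types or from cell to cell. GA-rich stretches such as GAGAG have been described as sequences bound by the zinc finger protein cKrox (ZBTB7B) in DNA that goes to the lamina.

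Before any values, the DNA at the border of 4 private domains is shown, for what the start of a LAD called in a single mouse looks like at the base level. Each is 200 bases of GRCm38.p6 (mm10), plus strand, centered on the first base of the LAD that holds the longest isolated private stretch of a library, for the 4 libraries with the most private bins among those with such a stretch. Capitals mark GAGAG or its complement CTCTC.
CT18 replicate 2, chr1:13757901-13758100: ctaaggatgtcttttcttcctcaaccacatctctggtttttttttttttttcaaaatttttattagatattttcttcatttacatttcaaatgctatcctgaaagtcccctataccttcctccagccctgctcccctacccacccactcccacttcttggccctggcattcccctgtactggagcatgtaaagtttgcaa
CT24 replicate 1, chr1:40823901-40824100: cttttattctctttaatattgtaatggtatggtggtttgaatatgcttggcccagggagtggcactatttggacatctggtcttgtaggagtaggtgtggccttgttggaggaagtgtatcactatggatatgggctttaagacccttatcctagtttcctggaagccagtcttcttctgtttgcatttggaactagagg
CT0 replicate 2, chr15:40575901-40576100: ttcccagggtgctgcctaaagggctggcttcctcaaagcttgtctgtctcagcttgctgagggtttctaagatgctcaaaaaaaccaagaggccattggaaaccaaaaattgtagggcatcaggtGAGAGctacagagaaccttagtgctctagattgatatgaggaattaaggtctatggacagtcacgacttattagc
CT6 replicate 2, chr9:104598901-104599100: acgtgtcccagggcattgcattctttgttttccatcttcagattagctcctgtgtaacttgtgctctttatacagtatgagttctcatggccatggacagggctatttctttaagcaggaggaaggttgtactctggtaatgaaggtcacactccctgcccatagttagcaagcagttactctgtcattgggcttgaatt
The first window lay outside annotated genes, 56.2 kb from Xkr9, and the third lay 78.9 kb from Zfpm2. The second was intronic in Tmem182 and the fourth in Cpne4, and none of the 4 touched an exon or UTR. GC content of the windows was 41%, 43%, 45.5% and 44.5%, in the order shown. GAGAG or CTCTC occurred once, in the CT0 window, while 40.0% of all 11979192 windows of this length with known bases on chr1 to chr19 hold it. LAD starts lie on a grid whose step differed between libraries (4 to 61 kb), so a deposited border is placed to within such a step, not to the base.

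Private bins were spread unevenly over the mice. The 2 CT18 libraries held 192 and 184 of them, CT0 replicate 1 held 180 and CT24 replicate 1 held 154, so that these 4 libraries carried 710 private bins, or 61.5% of all. At the other end, CT30 replicate 2 held 6 and NS replicate 2 held 8. Mates of a time point could differ widely: CT24 replicate 2 had 31 private bins against 154 in its mate, CT0 replicate 2 had 70 against 180, CT30 replicate 1 had 77 against 6, and NS replicate 1 had 42 against 8. The mates lay closer at CT6 (74 and 54) and CT12 (45 and 37). The mean per mouse ranged from 25.0 ± 24.0 bins (SD, n = 2) in NS to 188 ± 5.66 (SD, n = 2) at CT18, with 125 ± 77.8 at CT0 and 92.5 ± 87.0 at CT24 (SD, n = 2 each). Both CT18 mice lay above all libraries of the other time points. Both NS mice (42 and 8) and both CT12 mice (45 and 37) lay under both mice of CT0 and of CT6, whereas the wide spread between the mates of CT24 and of CT30 overlapped most other time points. Libraries titled replicate 1 held 764 private bins (66.2%) and those titled replicate 2 held 390. The deposited names carry another number for 3 of the 14 libraries, NS replicate 2, CT0 replicate 2 and CT12 replicate 1, which are numbered 3 there, so a split by replicate rests on the titles.

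The number of private bins was also set against the LAD bins of each library. The 14 libraries had 3328 (NS replicate 1) to 6525 (CT18 replicate 2) bins in a LAD. The private share was highest in CT0 replicate 1, at 4.25% of 4235 LAD bins, followed by CT18 replicate 1 at 3.11%, CT18 replicate 2 at 2.82% and CT24 replicate 1 at 2.44%. It was lowest in NS replicate 2 (0.154%) and CT30 replicate 2 (0.155%). Only 3 libraries had fewer LAD bins than CT0 replicate 1.

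**Figure D1:**
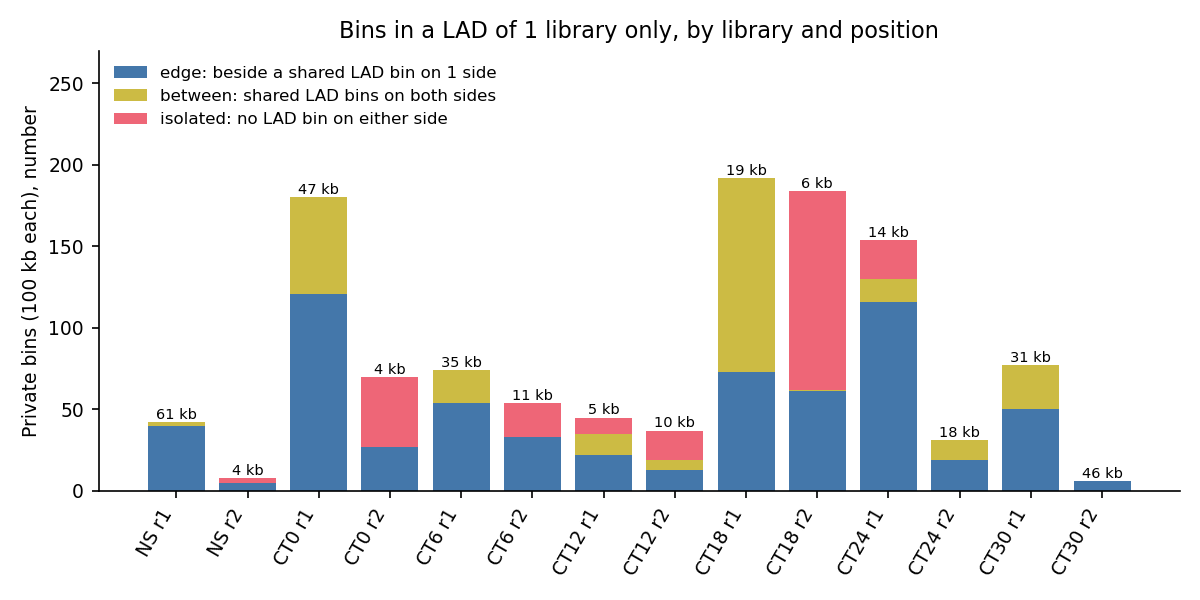
Number of private 100-kb bins (y axis) in each of the 14 libraries (r1 and r2 are replicates 1 and 2), divided into bins of edge, between and isolated stretches. The figure in kb above each bar is the grid step of its LAD starts. CT18 r1, CT18 r2, CT0 r1 and CT24 r1 stand above the others, with 154 to 192 bins, and isolated bins appear only in libraries with a step of 14 kb or less.

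Most private bins, 913 of 1154, belonged to stretches that touched a LAD bin that another mouse also had. Consecutive private bins of a library formed 360 stretches. Of these, 290 stretches with 640 bins (55.5%) lay at an edge, with a LAD bin of the same library that was shared with another mouse on 1 side. Another 31 stretches with 273 bins (23.7%) lay between shared LAD bins on both sides. The shared bins on either side need not be held by the same other mouse. The remaining 39 stretches with 241 bins (20.9%) were isolated, with no LAD bin on either side. Edge stretches were short, with a median of 1 bin, whereas between and isolated stretches had a median of 6 bins each. All 155 edge stretches of 1 bin are among the 158 stretches of that length, and no isolated stretch was shorter than 3 bins.

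The shared bin beside an edge stretch was itself seldom common to many mice. It was in a LAD of 2 libraries at 161 of the 290 edges, of 3 to 7 libraries at 124, of 8 to 13 libraries at 5, and of all 14 libraries at 0. The mate from the same time point was among the libraries that held this neighboring bin at 44 of the 290 edges.

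Isolated stretches came from 7 libraries. CT18 replicate 2 held 19 of the 39, with 122 bins, and CT0 replicate 2 held 9, with 43 bins. CT6 replicate 2 and CT12 replicate 2 held 3 each, CT12 replicate 1 and CT24 replicate 1 held 2 each, and NS replicate 2 held 1. The 7 libraries with isolated stretches had grid steps of 4 to 14 kb, and the 7 without had steps of 18 to 61 kb. The part of the step in this split was not tested. CT18 replicate 2, with a step of 6 kb, and its mate, with a step of 19 kb, had nearly the same number of private bins in different places: the mate had 0 isolated bins and 119 between bins, CT18 replicate 2 had 122 isolated bins and 1 between bin. CT0 replicate 1 (47 kb) likewise had 0 isolated, 59 between and 121 edge bins, against 43 isolated and 27 edge bins in CT0 replicate 2 (4 kb).

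Isolated stretches lay far from the LADs of the other mice. The nearest LAD of another library was a median of 1430 kb away (150 to 12027 kb), and 25 of the 39 stretches lay more than 1 Mb from any. Counting whole LADs rather than bins, 325 of the 2845 deposited LADs held a private bin, and 40 of these overlapped no LAD of any other library. Those 40 were 330 to 1386 kb long, with a median of 537 kb.

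The deposited intervals mostly covered private bins over their whole length. This is the value that the rule used, and it shows how an interval falls on the bins, not how strong a LAD call was. The LAD of the one library covered 940 of the 1154 bins over their whole length, and 951 bins had no base covered in any other library. Just inside the threshold, 47 private bins were covered for 50 to under 60 kb. Just outside it, 57 bins in no LAD had a highest coverage of 40 to under 50 kb, 67 private bins were covered for 40 to under 50 kb in another library, and 48 bins in 2 libraries were covered for 50 to under 60 kb in the second.

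The longest private stretches were single blocks of more than 2 Mb. In CT18 replicate 1, 27 consecutive bins on chr16:76000001-78700000 lay between shared LAD bins, each in a LAD of 2 libraries. The 7 protein-coding genes that start there include Samsn1, a signaling adaptor of blood cells, Nrip1, a corepressor of nuclear receptors, and Usp25, a deubiquitinating enzyme. In CT0 replicate 1, 26 bins on chr9:13500001-16100000 held 26 genes, the first of which are the phosphoinositide phosphatase Mtmr2, the centrosome protein Cep57 and Fam76b. This block had a GC content of 43.6%, close to that of bins in no LAD. In CT30 replicate 1, 24 bins on chr15:92800001-95200000 held 10 genes, led by the xylosyltransferase Gxylt1, Yaf2 and the RNA-binding protein Zcrb1. In all, 23 stretches of 10 bins or more, from 7 libraries, held 337 private bins (29.2%).

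The longest stretches of other libraries were shorter and often isolated. CT24 replicate 1 had 14 isolated bins on chr1:40800001-42200000, with the single gene Tmem182, 2031 kb from the nearest LAD of another mouse. The LAD itself starts inside that gene, at 40824001, whereas the gene starts at 40805601, in the same bin. CT18 replicate 2 had 13 isolated bins on chr1:13800001-15100000, with Eya1, a coactivator in organ development, Msc, a transcriptional repressor of the basic helix-loop-helix class, and Trpa1, an irritant-sensing cation channel. CT0 replicate 2 had 10 isolated bins on chr15:40600001-41600000, with the GATA cofactor Zfpm2 and the oxidation resistance gene Oxr1. CT6 replicate 2 had 8 isolated bins on chr9:104600001-105400000, where 5 genes start, first Mrpl3 of the mitochondrial ribosome, Nudt16 and 1700080E11Rik. CT12 replicate 2 had 7 isolated bins on chr1 with the potassium channel gene Kcnq5, and NS replicate 2 had 3 on chr17 with 0 genes.

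In 3 of the remaining libraries the longest stretch lay between shared LAD bins. The 10 bins of CT12 replicate 1 on chr3 held the transcription factor gene Zfhx4 and the peroxisomal gene Pex2, the 8 bins of CT6 replicate 1 on chr3 held Zc2hc1a and the cytokine gene Il7, and the 8 bins of CT24 replicate 2 on chr10 held Gja1, which encodes the gap junction protein connexin 43. In NS replicate 1 and CT30 replicate 2 the longest stretches lay at an edge. NS replicate 1 had 2 stretches of 4 bins, on chr1 without genes and on chr5 with Speer4b and Paxip1, and CT30 replicate 2 had 2 of 2 bins, on chr3 with the protease gene Prss12 and on chr12 without genes. The longest edge stretches of any library had 14 bins.

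**Figure D2:**
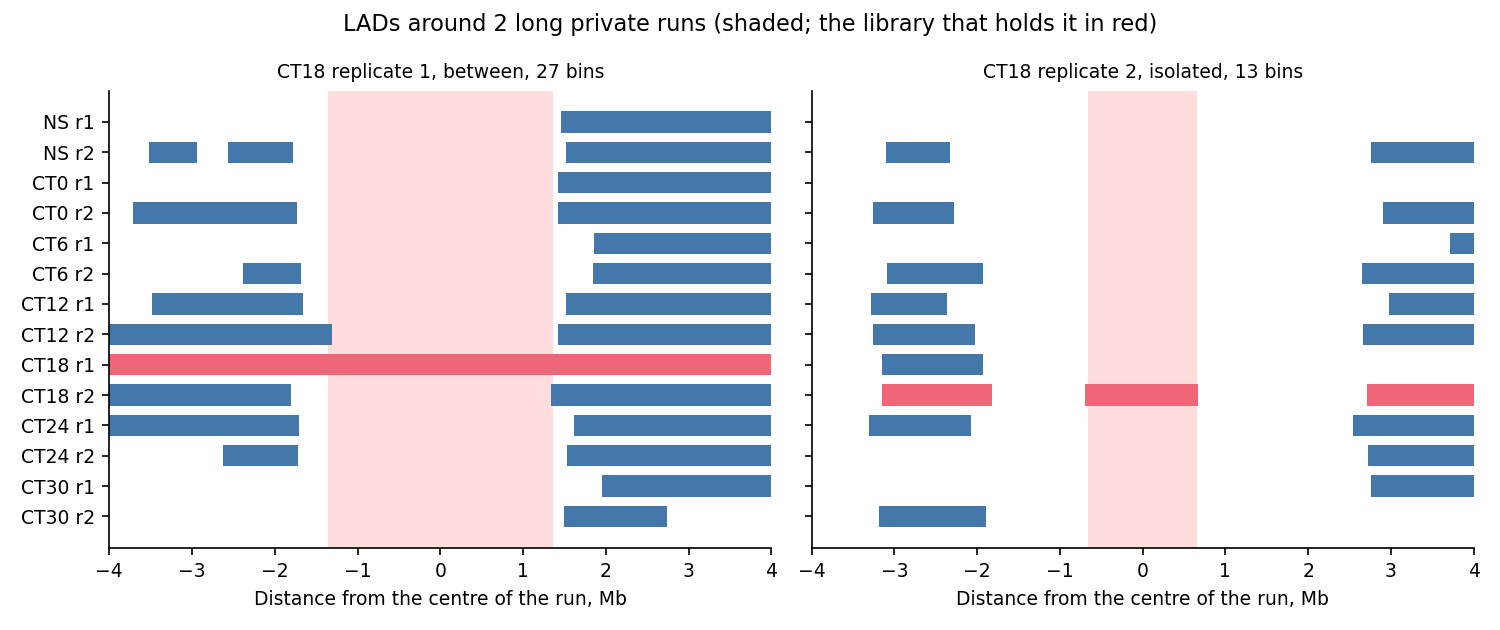
Deposited LADs (bars) of the 14 libraries (rows) within 4 Mb of the center of 2 long private stretches (shaded), with the library that holds the stretch in red; the x axis is the distance from the center in Mb. In CT18 replicate 1 (left, 27 bins) a single LAD runs through bins that no other library had in a LAD. In CT18 replicate 2 (right, 13 bins) the stretch belongs to a separate LAD, and the shaded stretch lies 1242 kb or more from the LADs of the others.

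Private bins occurred on all 19 chromosomes, but not evenly. They made up 9.56% of the bins of chr16 and 8.55% of chr15, against 2.43% of chr4 and 2.75% each of chr7 and chr12, with 4.68% over all. Relative to the bins in a LAD of at least 1 library, the shares were 23.0% on chr16, 22.6% on chr15 and 6.15% on chr4. On chr16, 8 libraries contributed to the 94 private bins, with 32 from CT18 replicate 2. On chr15, 8 libraries contributed to 89, with 31 from CT30 replicate 1. Chr3 had private bins of the largest number of libraries, 13 of 14. Neighboring bins share a call, so that a few long stretches weigh on these shares. Within 5 Mb of a chromosome end lay 6.50% of the private bins and 6.81% of the bins shared by 2 or more libraries. Of the bins in no LAD, 8.60% lay there, counted without the bins of mostly unknown bases.

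**Figure D3:**
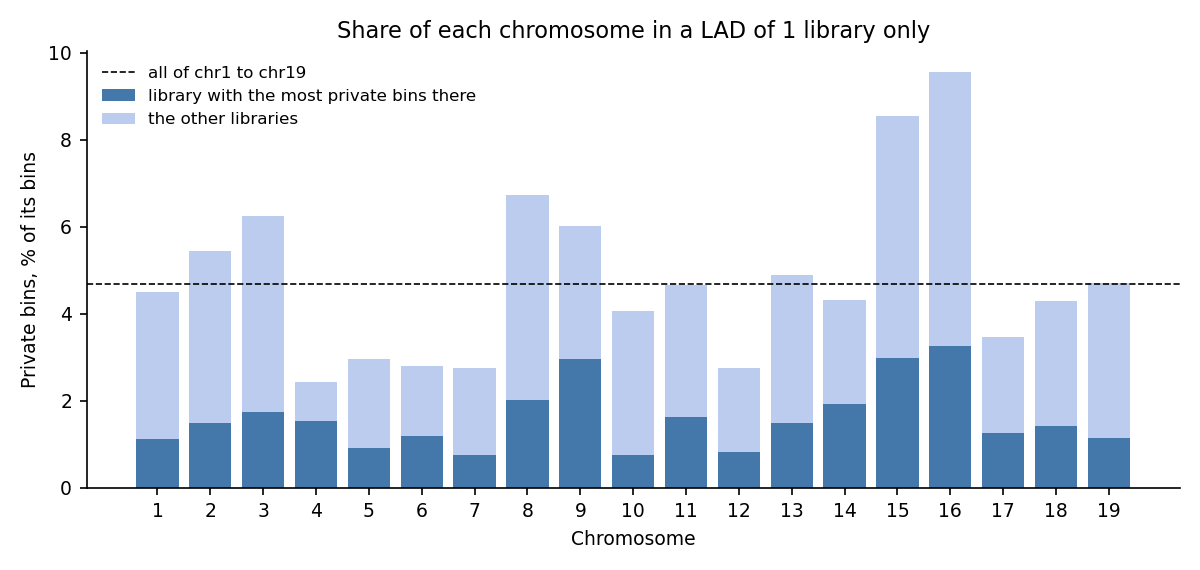
Private bins as a percentage of all 100-kb bins of each chromosome, with the library that has the most private bins there in dark blue; the dashed line is the share over all 19 chromosomes (4.68%). Chr16 (9.56%) and chr15 (8.55%) stand highest and chr4 (2.43%) lowest.

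Gene density and base composition were not used to choose the bins and could be tested over the 14 libraries. On average, private bins lay between shared LAD bins and bins outside LADs in both measures. Transcription start sites of protein-coding genes (GENCODE vM21) in private bins ranged from 1.25 per Mb in NS replicate 2, which has only 8 private bins, to 10.8 per Mb in CT12 replicate 2, with a median of 5.30. In the LAD bins that the same library shared with another, they ranged from 2.51 to 3.69 per Mb, with a median of 3.24. Private bins were denser in genes in 12 of 14 libraries, and the ranges overlapped. The mean difference was 2.43 ± 2.81 genes per Mb (SD, n = 14; exact two-sided sign-flip permutation test, p = 0.00415, adjusted p = 0.00623 with Benjamini-Hochberg over 6 tests). NS replicate 2 (−2.10 per Mb) and CT18 replicate 2 (−0.40 per Mb) went the other way. Against the 11.5 genes per Mb of bins in no LAD, private bins had fewer genes in 14 of 14 libraries, with a mean difference of −5.84 ± 2.70 per Mb (SD, n = 14; same test, p = 0.000122, the smallest it can give, adjusted p = 0.000244).

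The excess over shared LAD bins depended on the comparison. Against bins in 2 to 4 libraries only, private bins had a mean difference of −0.681 genes per Mb (exact sign-flip permutation test, p = 0.322, adjusted p = 0.483). With isolated bins alone, in the 7 libraries that have them, the mean difference from shared bins was −0.237 per Mb (exact permutation test, p = 0.828, adjusted p = 0.828). In replicate 2 libraries alone it was 1.81 per Mb (exact permutation test, p = 0.172, adjusted p = 0.258), and in the 7 libraries with a step of 14 kb or less it was 1.67 per Mb (exact permutation test, p = 0.156, adjusted p = 0.234). The bins in no LAD are the same set for every library, so that comparison sets 14 values against a single fixed value. The shared bins are largely the same bins for every library. The 14 differences are thus not fully independent.

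Base composition gave the same order with less spread. GC content of the private bins of a library ranged from 38.1% (CT0 replicate 2) to 43.2% (NS replicate 1), with a median of 40.1%. Shared LAD bins ranged from 37.6% to 38.3%, with a median of 38.0%, and bins in no LAD had 43.9%. Private bins were richer in G and C than the shared bins of the same library in 14 of 14 libraries, by 2.53 ± 1.55 percentage points, and poorer than bins in no LAD in 14 of 14, by −3.39 ± 1.73 points (SD, n = 14; exact two-sided sign-flip permutation tests, p = 0.000122 and adjusted p = 0.000244 for each, p being the smallest that the test can give). Here isolated bins alone also exceeded shared bins, by 1.85 points (7 libraries; exact permutation test, p = 0.0156, adjusted p = 0.0312). Against bins in 2 to 4 libraries the difference was 0.304 points (exact permutation test, p = 0.0898, adjusted p = 0.180).

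**Figure D4:**
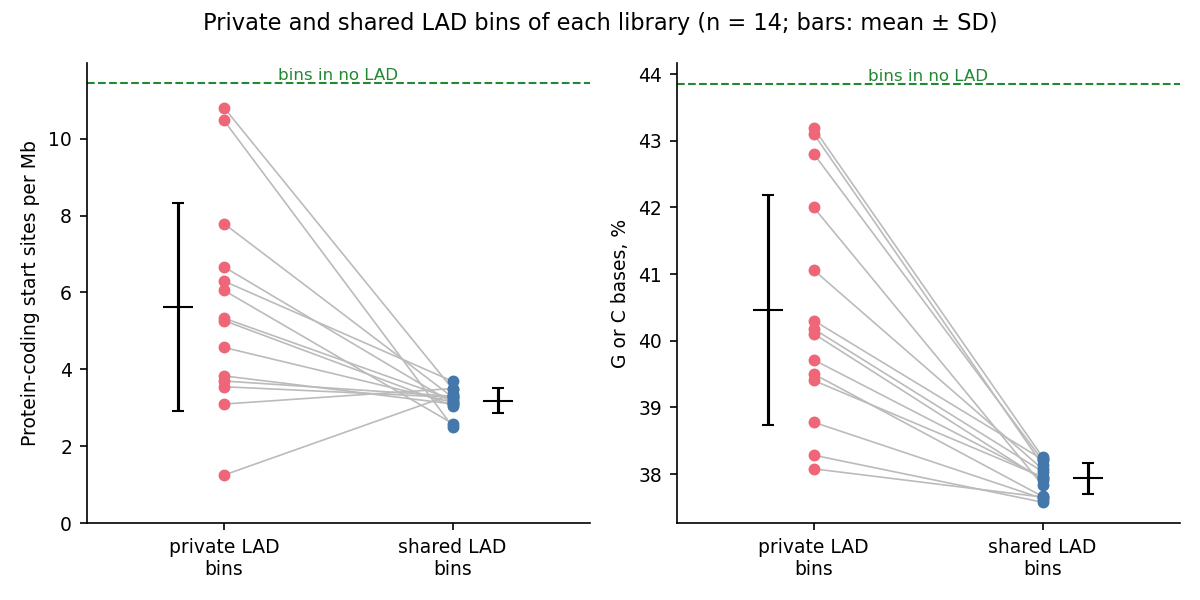
Protein-coding transcription start sites per Mb (left, axis from 0) and GC content in % (right, axis not from 0) of private and shared LAD bins, with 1 point per library, lines joining the 2 values of a library, and black bars for mean ± SD (n = 14); the green dashed line is the value of bins in no LAD. Private bins exceed shared bins in 12 of 14 libraries in gene density and in 14 of 14 in GC content, and all lie under the dashed line.

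In neither measure did the test across time points pass the threshold. Gene density of private bins per library averaged 3.40 ± 0.42 per Mb at CT18 and 3.69 ± 0.20 at CT24, against 7.23 ± 0.80 at CT30 and 8.07 ± 3.87 at CT12 (SD, n = 2 each), and 5.86 ± 6.52 in NS (SD, n = 2). The F ratio over the 7 time points was 0.678 (exact permutation test over 135135 divisions of the libraries into pairs, p = 0.677, adjusted p = 0.729). This value rested on single libraries: F was 4.36 without NS replicate 2 (exact permutation test, p = 0.0634, adjusted p = 0.0761) and 4.35 without CT12 replicate 1 (exact permutation test, p = 0.0641, adjusted p = 0.0769), with 0.379 to 1.78 when each of the others was left out. For GC content it was 0.564 (same exact permutation test, p = 0.729, adjusted p = 0.729), with means from 39.2% ± 1.29 at CT12 to 42.4% ± 0.57 at CT30 (SD, n = 2 each).

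Pooled over libraries, the values were set against the number of mice that held a bin in a LAD. Gene density was 5.07 per Mb in private bins, 6.11 in bins of 2 libraries, 7.43 in bins of 3, and 1.18 in the 1499 bins of all 14. GC content declined from 43.9% in no LAD to 40.6% in private bins and 37.1% in bins of all 14 libraries. Repeat-masked bases made up 34.3% of private bins, 29.5% of bins in no LAD and 42.8% of bins in all 14. GAGAG or CTCTC occurred 421 times per 100 kb in private bins, 456 times in bins of no LAD and 356 times in bins of all 14. The lower pooled gene density of private bins than of bins in 2 or 3 libraries is not matched by a call in the test over libraries given before, against bins of 2 to 4 libraries.

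**Figure D5:**
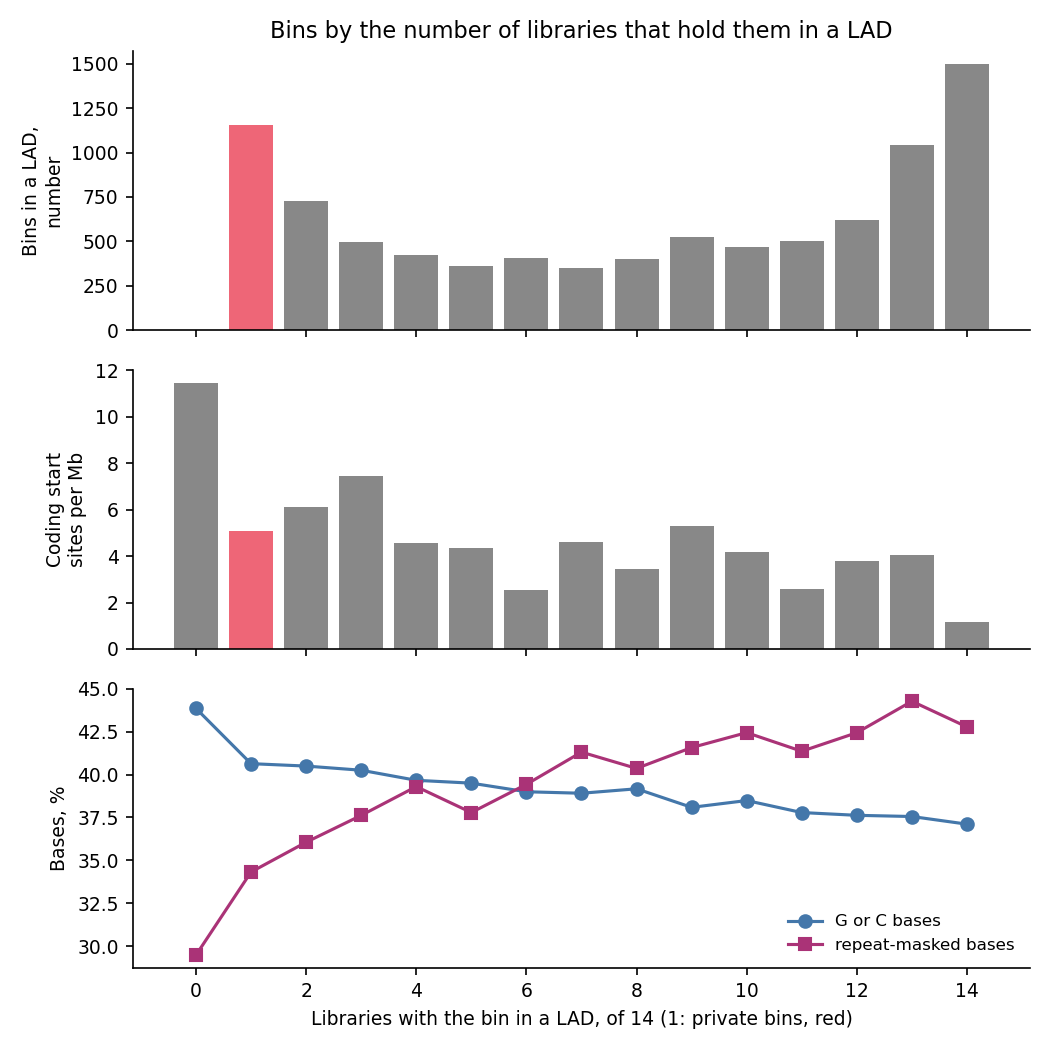
Bins grouped by the number of libraries, of 14, that hold them in a LAD (x axis; private bins in red), with the number of bins (top, without the 15670 bins in no LAD), protein-coding transcription start sites per Mb (middle), and GC content and repeat-masked bases in % (bottom, axis not from 0). Private bins number 1154, more than in any class of 2 to 13 libraries, and have 40.6% GC and 34.3% masked bases.

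By position, isolated bins held the fewest genes. Start sites numbered 3.24 per Mb in isolated, 5.34 in edge and 6.04 in between bins, beside 3.83 in all shared bins. No protein-coding gene started in 78.8% of isolated, 68.1% of edge and 61.9% of between bins, compared with 80.3% of shared bins and 47.7% of bins in no LAD. Repeat-masked bases made up 36.8% of isolated, 33.7% of edge and 33.5% of between bins. These pooled values mix libraries and carry no test.

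In all, 585 of the 20807 protein-coding genes of chr1 to chr19 started in a private bin (2.81%), and 795 of the 1154 private bins (68.9%) had none. This share of all genes is the background for the gene groups that follow. Of 21 clock genes, 0 started in a private bin, 1 in a shared LAD bin and 20 in no LAD. Of 18 genes of lamina, nuclear envelope and associated proteins, all 18 started in no LAD. With so few genes, a count of 0 is near the share of all genes. Liver plasma protein genes were picked by symbols and symbol patterns, which also take in other genes of like name. Of these 140 genes, 1 started in a private bin: Serpini1 (neuroserpin, a serine protease inhibitor), in a between stretch of CT6 replicate 1. Of 179 ribosomal, proteasomal and respiratory complex I genes, 3 did: Ndufb5 at an edge in CT30 replicate 2, Ndufa4 in a between stretch of CT18 replicate 1, and Rpl36a-ps1 at an edge in CT6 replicate 1.

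Genes of drug and hormone metabolism were present as small clusters that came as blocks. Of 281 such genes, 12 (4.27%) started in private bins, from 5 libraries. In CT12 replicate 1, edge stretches on chr19 held the cytochrome P450 genes Cyp2c29, Cyp2c37, Cyp2c54, Cyp2c50 and Cyp2c70. In CT0 replicate 2, edge stretches held the sulfotransferase genes Sult1b1, Sult1d1 and Sult1e1 on chr5 and the transporter gene Abcb5 on chr12. The others stood alone: Cyp24a1, which encodes the enzyme that breaks down vitamin D, at an edge in NS replicate 1, Aldh1a1, of retinoic acid synthesis, at an edge in CT24 replicate 2, and Fmo9 in an isolated stretch of CT18 replicate 2. Genes of a cluster share bins, so that these 12 genes are not 12 separate events.

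Families known from gene-poor DNA differed in how many of their genes started in shared LAD bins, beside 14.4% of all protein-coding genes. Of 1495 olfactory, vomeronasal and taste receptor genes, 59 (3.95%) started in private bins and 1110 (74.2%) in shared LAD bins. The first in genomic order were Olfr366 in CT18 replicate 2, Olfr459 in CT12 replicate 1 and Vmn1r7 in CT0 replicate 2. Vmn1r7 belongs to a cluster of vomeronasal receptors in an isolated stretch of 4 bins on chr6, 485 kb from the nearest LAD of another mouse (the cluster was picked out after its values were seen). Of 126 cadherin, protocadherin, alpha-catenin, Robo and other adhesion genes, 9 (7.14%) started in private bins and 74 (58.7%) in shared ones. They include the synaptic adhesion gene Nlgn1 (CT18 replicate 2), the endothelial cadherin gene Cdh5 (NS replicate 1) and Robo4 (CT0 replicate 1). Of 190 ion channel genes, 5 (2.63%) started in private bins, 41 (21.6%) in shared ones and 144 in no LAD. Those in private bins include Kcnq5 (CT12 replicate 2), the glutamate receptor gene Gria2 (CT0 replicate 2, isolated) and the acetylcholine receptor gene Chrnb3 (CT6 replicate 2). Of the defensins (0 of 66) and killer lectin receptors (0 of 26) none started in private bins, and 46 and 17 started in shared bins. In lists of this size a count of 0 is near the 2.81% of all genes.

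For keratins a single mouse set the count of the family. All 12 of the 113 keratin and keratin-associated genes in private bins (10.6%) lay in 1 library, CT30 replicate 1, as a cluster on chr16 that starts with Krtap24-1, Krtap26-1 and Krtap27-1, in a between stretch. Of 455 zinc finger genes, 15 (3.30%) started in private bins of 5 libraries, first Zfp969, Zfp966 and Zfp973 on chr2, all in CT12 replicate 2.

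The longest gene bodies inside private bins were those of 5 genes. Rbfox1, a splicing regulator of neurons and muscle, lay with 1315 kb of its 1526 kb in private edge bins of CT0 replicate 1 (ENSMUSG00000008658.16, chr16:5885355-7411526, plus strand). Inpp4b, a phosphoinositide phosphatase gene of 785 kb on chr8, lay whole in an isolated stretch of CT24 replicate 1, 4700 kb from the nearest LAD of another mouse. Arhgap15, a gene of 647 kb on chr2, lay whole in a between stretch of CT18 replicate 1. Private bins of the same library covered 600 kb of the 1024 kb of Astn2, of neuronal migration, whose start lies outside private bins. Private edge bins of CT18 replicate 2 covered 553 kb of the 593 kb of Fgf12, an intracellular fibroblast growth factor homolog. RNA levels of these genes were not analysed here.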

How the data were processed

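LADs were used as deposited: the files hold positions in bp (mm10) and no score. Before deposit, the authors aligned reads (Bowtie), discarded duplicates (Picard), thinned ChIP and input to equal depth per chromosome, and ran EDD on every mouse separately, taking GapPenalty and BinSize as averages of repeated runs. Each library thus had its own resolution. The grid step of a library is the largest number of kb dividing its LAD starts, without the 82 of 2845 starts off whole kb. Sequence came from GRCm38.p6 and genes from GENCODE vM21. No LAD (0) passed a chromosome end of that assembly. Inputs and RNA-seq were not analysed here.

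Bins of 100 kb from position 0 were used, and the 652 with over 50% unknown bases were left out of density and GC. Libraries are the replicates; tests were exact two-sided sign-flip tests over 14 libraries (16384 sign assignments) and an F ratio permuted over 135135 divisions into pairs, adjusted over 6 tests with a threshold of 0.05. They were also run on simulated data, with genes drawn independently per bin, or normally distributed values for the F ratio. That setting lacks the gene clusters of the data. Members, the 12 gene lists, tests and naming rules were chosen with earlier results of these data known. Genes named were those of the longest private stretch of each library (the first 3 where more), of the clock, lamina, plasma protein and xenobiotic lists (up to 12), the first 3 of other lists, and the 5 longest gene bodies in private bins. CT18 replicate 1 and CT0 replicate 1 have no isolated stretch, so the next libraries gave the border sequences. Repeat and motif shares, the comparisons by grid step and those by number in the deposited names were added after seeing the data. Python 3.11.15, NumPy 2.4.6, SciPy 1.17.1 and Matplotlib 3.10.9 were used.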

Additional observations from a re-analysis of the deposited data

Results flagged for a closer look

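The sex chromosomes were left out of the bins described and, treated in the same way, held private bins above the limit of 3 that a count of 0 allows. On chromosome X, 71 of 194 bins in a LAD of at least 1 library were private (36.6%, against 12.9% on chr1 to chr19), from 8 libraries, with 18 from CT6 replicate 2. On chromosome Y, 243 of 243 bins in a LAD were private, from 3 libraries, with 202 from CT24 replicate 2. The files hold 68 LADs on X and 13 on Y over all libraries. The labels give the sex of the mice as female in 1 field and male in another, and the authors describe them as male.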

How the results depend on the processing

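The number of private bins followed the bin width, with 2304 bins at 50 kb and 576 at 200 kb, both 115.2 Mb against 115.4 Mb at 100 kb. It stayed between 1144 and 1225 with another coverage minimum, a shifted grid, NS left out or chromosome X added, and between 1111 and 1225 when each library was left out. The excess in gene density over shared bins lost its call in libraries titled replicate 2 (1.81 per Mb) and in libraries with a step of 14 kb or less (1.67), and changed sign with isolated bins only (−0.237) or against bins of 2 to 4 libraries (−0.681). The excess in GC content lost its call against bins of 2 to 4 libraries (0.304 points). The cause was not tested. The other alternatives run left these calls on their side of the threshold, as did leaving out each library (2.08 to 3.08 per Mb and 2.39 to 2.62 points over shared bins, −6.17 to −5.22 per Mb and −3.54 to −3.27 points from bins in no LAD). Across time points F ran from 0.379 to 4.36 for gene density, the latter without NS replicate 2 (exact permutation test, p = 0.0634) and 4.35 without CT12 replicate 1 (exact permutation test, p = 0.0641), and from 0.230 to 1.52 for GC content. Same-numbered mice were not treated as pairs in the main tests. The difference between replicates 1 and 2 correlated between time points from −0.165 to 0.476, with a median of 0.041. The correlation exceeded 0.1 in 5 of 21 pairs of time points. With a replicate block the F ratios were 0.609 (exact permutation test, p = 0.705) and 0.554 (exact permutation test, p = 0.758). Depth is unknown, and 2 mice per time point limit what could be told between them.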

Other observations

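The 4 libraries with the fewest bins in a LAD were also those with the most GC-rich private bins (noticed after seeing the data, and not tested). NS replicate 1, CT30 replicate 2, CT30 replicate 1 and CT0 replicate 1 had 3328, 3879, 3955 and 4235 LAD bins, and their private bins had 43.2%, 42.0%, 42.8% and 43.1% GC. The other 10 libraries had 4961 to 6525 LAD bins and 38.1% to 41.1% GC. The grid steps of the first 4 were 61, 46, 31 and 47 kb, and those of the others 4 to 35 kb.

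CT18 replicate 2 held a second isolated stretch of 13 bins, on chr16:47600001-48900000, 1920 kb from the nearest LAD of another mouse. It was picked out after its genes were seen. They are Dppa4 and Dppa2, known from early embryos and pluripotent cells, Gm5485, the germ cell gene Morc1, the T cell gene Trat1, and Retnlb, Retnla and Retnlg, which encode resistin-like secreted proteins.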
